A study of Mus musculus with 163 samples.

Results

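Cytosolic ribosomal protein genes, the *Rpl* and *Rps* genes, were described across all MBH Pos neurons of the series. A gene was taken as a member if its symbol began with Rpl or Rps followed by a digit or a p, unless it carried the pseudogene mark -ps or began with Rps6k, the symbol of the ribosomal S6 kinases. Of 12187 genes in the table, 81 met this rule, 10 *Rps6k* genes were set aside, and 0 symbols carried -ps. The 81 comprise 45 proteins of the large (60S) subunit, 30 of the small (40S) subunit and 6 genes outside the set of 75 core subunits, which are the paralogues *Rps27l*, *Rps27rt*, *Rpl22l1* and *Rpl36al*, and *Rpl7l1* and *Rps19bp1*.

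The cells were single neurons from the mediobasal hypothalamus of young adult male mice on a C57/BL6 background that carry the transgene Tg(Pomc-EGFP)1Low, in which *Pomc* regulatory sequence drives enhanced GFP, and they were fed *ad libitum*. They were gated by FACS on GFP, on a nuclear stain and on pulse width to keep singlets, and each gave 1 full-length cDNA library. A cell was called Agrp-high at 10 log2RPM of *Agrp* or more (48 cells), and of the remaining, Agrp-low cells, 34 were called Pomc-high at 12 log2RPM of *Pomc* or more and 81 Pomc-lower. All groups carry the same transgene, and these 2 transcripts alone set the groups. *Agrp* ranged between 10.12 and 13.46 log2RPM in Agrp-high cells, between -0.91 and 6.41 log2RPM in Pomc-high cells and between -0.91 and 9.99 log2RPM in Pomc-lower cells. *Pomc* had a median of 6.47 log2RPM in Agrp-high, 14.52 in Pomc-high and 7.06 in Pomc-lower cells. The values on either side of the splits lay close together, at 10.12 and 9.99 log2RPM for *Agrp* and at 12.20 and 11.91 log2RPM for *Pomc*. The labels do not say from which animal, plate or batch a cell came, and the cells were treated as 1 sample. Every SD is a spread over cells, every difference is a description without a p-value, and a correlation is over cells whose animal and plate are not known.

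The neuronal genes *Ncam1*, *Snap25*, *Stmn2* and *Map2* reached 5 RPM in every cell. Of other neuronal genes listed, *Eno2* reached it in 98.2%, *Elavl4* in 96.3%, *Syt1* in 88.96% and *Rbfox3* in 74.2% of cells. *Pomc* reached 5 RPM in all but 1 cell. Depth, counted as reads on the 12187 genes of the table, was between 1.46 and 41.9 M reads a cell. Its medians were 8.45 M in Agrp-high, 8.13 M in Pomc-high and 7.88 M in Pomc-lower cells. At least 3 oligodendrocyte markers reached 7 log2RPM in 2 cells, both Pomc-lower. Of their reads on genes of the table, these cells had 0.517% and 1.20% in ribosomal protein genes. Summed over the 5 of 8 oligodendrocyte markers measured, the highest cell had 645 RPM among Agrp-high, 234 RPM among Pomc-high and 151849 RPM among Pomc-lower cells, while the medians were 107.95, 84.1 and 72.8 RPM in the same order. For the 2 of 7 astrocyte markers measured the highest sums were 454, 21.2 and 2674 RPM in the same order, for 2 of 4 markers of oligodendrocyte precursors 17.9, 6.40 and 4727 RPM, and for 3 of 7 pituitary markers 44.03, 1168 and 17784 RPM, with medians of at most 3.34 RPM for each of these last 3 lists in every group. Of the listed markers, 0 of 7 for microglia and 0 of 5 for endothelium were measured. Since 3 markers were needed, only the oligodendrocyte and pituitary lists could flag a cell.

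A ribosome reads mRNA on its small subunit and joins amino acids on its large subunit, and each subunit is built of rRNA and many proteins, most of them present in single copy. Because the proteins are needed in equal numbers, their genes are known to be regulated together. Much of that control acts on the mRNAs, most of which start with a run of pyrimidines, the 5′ terminal oligopyrimidine (TOP) tract, through which mTOR signalling sets how strongly they are translated. Messenger RNA levels, the quantity measured here, do not report that translational step.

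*Rps27* and *Rps27rt* can hardly be told apart by short reads, so their shared sequence is given first, beside a paralogue that can. The coding sequences of *Rps27* (chr3:90212522-90213651, minus strand, GRCm38), which encodes a zinc-binding small subunit protein, and of *Rps27rt* (chr9:114982366-114982739, minus strand), a single-exon copy, were identical over all 252 coding bases (GENCODE M21). The paralogue *Rps27l* (chr9:66946086-66949516, plus strand) has the same coding length and differs at 60 bases, which are in capitals here.
*Rps27*: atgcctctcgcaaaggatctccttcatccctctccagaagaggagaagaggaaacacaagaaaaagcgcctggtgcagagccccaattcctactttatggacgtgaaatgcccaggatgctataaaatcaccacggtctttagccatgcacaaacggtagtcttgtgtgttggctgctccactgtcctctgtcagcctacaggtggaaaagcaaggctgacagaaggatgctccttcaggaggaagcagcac
*Rps27l*: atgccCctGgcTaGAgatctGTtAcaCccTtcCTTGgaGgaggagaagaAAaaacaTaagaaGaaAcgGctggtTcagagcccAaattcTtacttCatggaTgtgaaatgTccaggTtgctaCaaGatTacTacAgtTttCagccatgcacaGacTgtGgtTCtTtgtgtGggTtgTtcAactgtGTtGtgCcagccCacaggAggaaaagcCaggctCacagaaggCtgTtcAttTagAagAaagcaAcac
Of the 50-base words of the *Rps27* transcript, 98.6% were also in *Rps27rt*, and of those of *Rps27rt* 91.1% were in *Rps27*, whereas *Rps27l* shared 0 with *Rps27*. Reads of this length therefore separate *Rps27l* from *Rps27*, but separate *Rps27* from *Rps27rt* at few positions, and the split between those 2 genes is uncertain wherever they are named. *Rpl36al* likewise differed from *Rpl36a* at 39 of 318 coding bases and shared 0 words with it. Over all members, the share of 50-base words found in at least 1 other annotated gene had a median of 56.8%. It was over 50% for 48 of 81, lowest at 0%, the value for *Rps19bp1*, and highest at 98.6% for *Rps27*. The kinds of these other genes were not counted.

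The pyrimidine run that marks TOP mRNAs was looked for around annotated starts in RefSeq (GRCm38.p6), which gave a promoter for 61 of the 81 members. It was defined as a C followed by at least 4 C or T bases, on the sense strand only, beginning within 10 bases of the start. Of these members 37 held such a run (60.7%), against 3451 of 9290 other genes of the table (37.1%) and 34.4% of all 27025 genes with a promoter in RefSeq. A gene with several annotated starts counted if any of them held a run. A match says only that these letters are there. The windows of 30 bases shown here, of which the first 15 precede the annotated start, belong to members that the results below turn on. Those with a run, in capitals, were as follows.
*Rps27* (chr3:90213634-90213663, minus strand): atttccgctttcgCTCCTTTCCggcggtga
*Rps27rt* (chr9:114982725-114982754, minus strand): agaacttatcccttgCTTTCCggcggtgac
*Rps12* (chr10:23787195-23787224, minus strand): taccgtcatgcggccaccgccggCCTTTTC
*Rps6* (chr4:86857353-86857382, minus strand): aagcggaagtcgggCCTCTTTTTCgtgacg
*Rplp2* (chr7:141447636-141447665, plus strand): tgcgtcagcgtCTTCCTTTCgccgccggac
*Rpl12* (chr2:32961697-32961726, plus strand): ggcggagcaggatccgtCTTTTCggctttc
*Rpl15* (chr14:18270972-18271001, minus strand): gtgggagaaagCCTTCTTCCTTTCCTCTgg
Other members had no run in the window searched.
*Rpl37* (chr15:5116598-5116627, plus strand): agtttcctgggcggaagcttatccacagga
*Rpl9* (chr5:65391417-65391446, minus strand): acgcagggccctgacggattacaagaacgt
*Rps28* (chr17:33824548-33824577, minus strand): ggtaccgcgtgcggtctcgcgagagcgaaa
*Rpl7l1* (chr17:46782642-46782671, minus strand): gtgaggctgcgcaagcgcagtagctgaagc
*Rpl37*, which followed the other members most closely across cells, had none at this RefSeq start. In GENCODE M21 the gene starts at chr15:5116645, beyond the window shown, so a run there would have been missed. The GENCODE gene starts of *Rps12*, *Rps6*, *Rplp2*, *Rpl12*, *Rpl15* and *Rpl7l1* also lie outside the windows shown. Whether a run was present was therefore read at the RefSeq start only. *Rpl15*, among the 4 that followed the other members least, had a run of 17 bases. A link between runs and covariation was not tested.

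Ribosomal protein mRNAs were near ubiquitous. At 5 RPM, 64 of 81 members were found in all cells and 79 in at least 90% of cells, compared with 595 and 2632 of 12106 other genes. All 81 were found together in all but 43 cells and all 75 core subunits in all but 15, and the cell with the fewest still had 75 members. The median of the members' means was 7.20 log2RPM, and the median of their SDs over cells was 0.67 log2. In the same band of mean level, between 6.31 and 8.53 log2RPM, the 1499 other genes had a median SD of 1.39 log2. The median over all genes was 2.23 log2. A small spread was not particular to the members, since 83 nuclear genes of the respiratory chain had a median SD of 0.65 log2. Those genes had a median level of 8.11 log2RPM. The members with the smallest spread were *Rps6*, the substrate of S6 kinase, with an SD of 0.51 log2, and the large subunit genes *Rpl31* (0.53), *Rpl23* (0.54), *Rpl19* (0.55) and *Rpl27* (0.55).

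**Figure D1:**
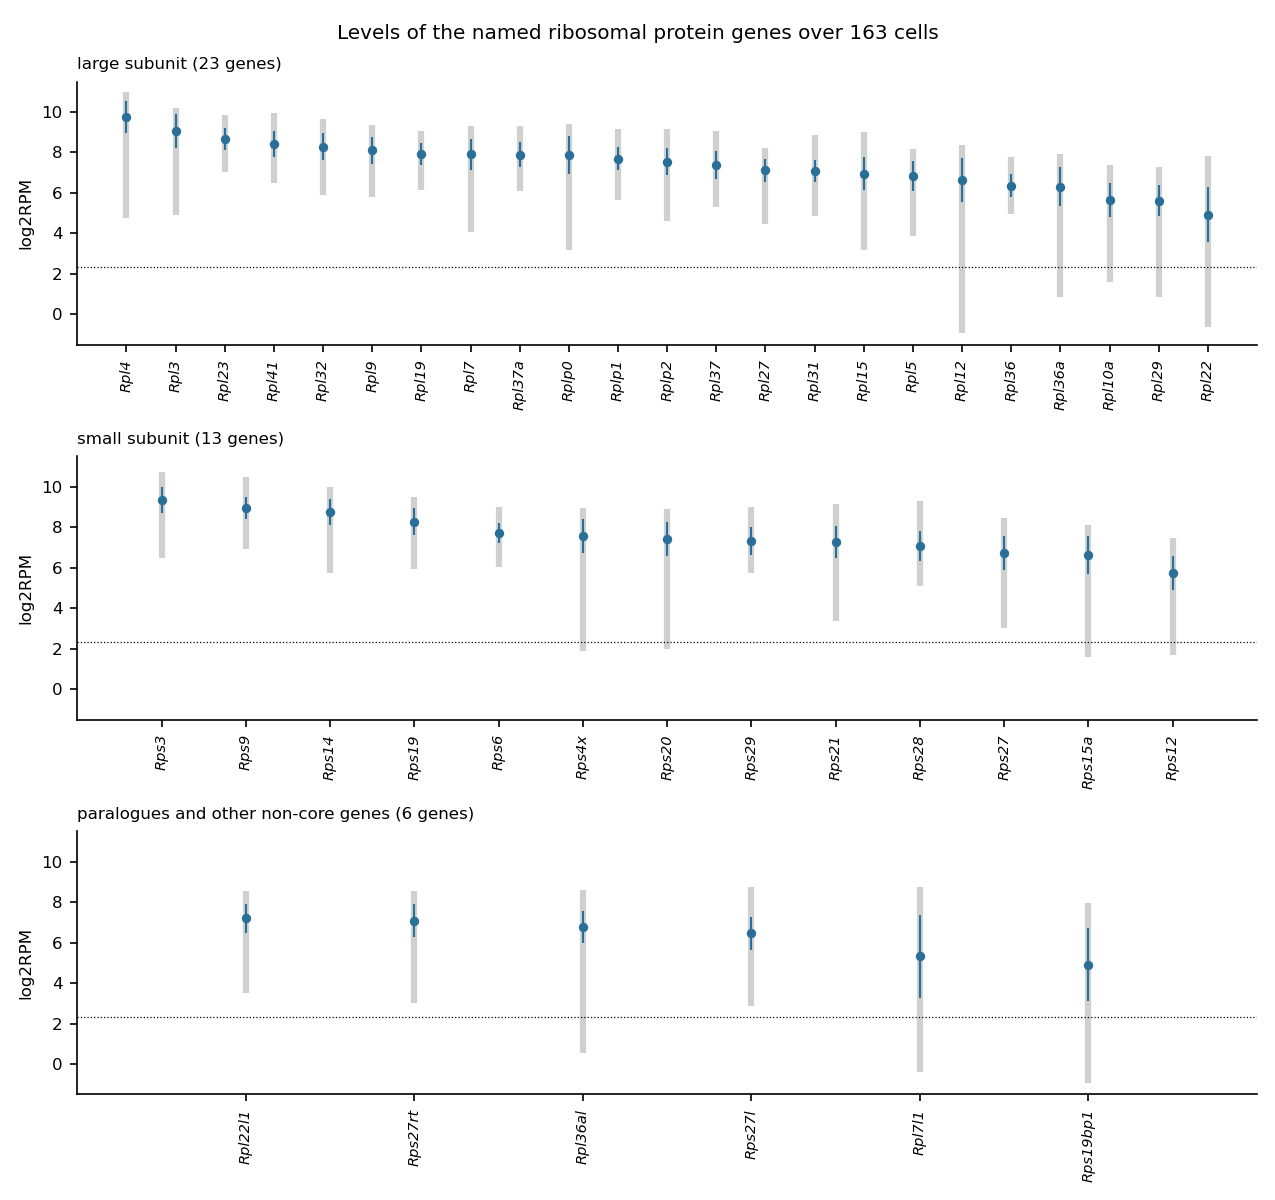
Mean log2RPM over all cells (points) of the 42 members named in the text, with bars of 1 SD and grey bars from the lowest to the highest cell, by subunit. The dotted line marks 5 RPM. Most of these lie between 6 and 9 log2RPM, and the longest grey bars belong to *Rpl12*, *Rpl22*, *Rpl7l1* and *Rps19bp1*.

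Level differed between members of the same complex. In log2RPM, which does not correct for transcript length, the highest means were those of *Rpl4* (9.75 ± 0.79), *Rps3* (9.35 ± 0.65), *Rpl3* (9.07 ± 0.84), *Rps9* (8.95 ± 0.56) and *Rps14* (8.74 ± 0.64; SD over all cells). *Rpl3* lies beside the peptidyl transferase centre, and *Rps3* and *Rps9* line the entry of the mRNA channel. Per kilobase of the annotated principal transcript, the highest values included *Rps14* at 780 RPM per kb, *Rpl41* at 740, *Rps9* at 704, *Rpl32* at 664 and *Rpl4* at 622. At the low end stood *Rpl5*, which binds 5S rRNA, at 62.6 RPM per kb, *Rps20* at 52.6 and *Rps15a* at 22.5, although the principal transcripts of *Rps20* and *Rps15a* are annotated at 3706 and 5130 bases and a shorter form would raise their values. Among core subunits, *Rpl22*, a large subunit protein that has a paralogue, had the lowest mean at 4.91 ± 1.36 log2RPM (SD over all cells), followed by *Rpl29* at 5.62 ± 0.76 and *Rpl10a* at 5.64 ± 0.85. The summed large subunit genes exceeded the summed small subunit genes by 0.54 ± 0.12 log2 in each cell (SD over all cells).

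The 6 genes outside the core set were unlike each other. The 4 paralogues were at levels of ordinary subunits: *Rpl22l1* had a mean of 7.20 ± 0.70 log2RPM, *Rps27rt* of 7.09 ± 0.80, *Rpl36al* of 6.75 ± 0.80 and *Rps27l*, in other cell types a target of p53, of 6.46 ± 0.83 (SD over all cells). *Rpl22l1* was thus measured above *Rpl22* itself, at 293 RPM per kb against 88.1 RPM per kb, and across cells the pair had r = -0.03. *Rpl36al* and *Rpl36a* were close, at 229 and 193 RPM per kb, with r = 0.43. *Rpl7l1*, a nucleolar relative of *Rpl7*, and *Rps19bp1*, whose product binds Rps19 and is not a part of the ribosome, varied more than any other member, with SDs of 2.06 and 1.82 log2, followed by *Rpl22* (1.36), *Rpl12* (1.08) and *Rpl36a* (0.98). *Rpl7l1* was found at 5 RPM in all but 21 cells (87.1%, exact Clopper-Pearson 95% interval 80.98% to 91.8%), and *Rps19bp1* in all but 17 (89.6%, 83.8% to 93.8%). These intervals cover counting error only.

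Shares are of the reads on the 12187 genes of the table, not of all sequenced reads. The share on ribosomal protein genes was higher in Agrp-high and Pomc-high than in Pomc-lower cells, by less than the full spread of any group. In the 48 Agrp-high cells it was lowest at 1.16%, had a median of 1.99% and was highest at 3.15%. In the 34 Pomc-high cells the lowest, median and highest shares were 1.14%, 1.92% and 2.63%. In the 81 Pomc-lower cells they were 0.517%, 1.48% and 3.03%. The groups overlapped along most of their range: 14 of 81 Pomc-lower cells lay above the Agrp-high median and 15 above the Pomc-high median, while 4 of 48 Agrp-high and 8 of 34 Pomc-high cells lay below the Pomc-lower median. At the low end, 16 Pomc-lower cells lay under every Agrp-high cell and 14 under every Pomc-high cell. Means were 2.01 ± 0.40% in Agrp-high, 1.85 ± 0.42% in Pomc-high and 1.55 ± 0.47% in Pomc-lower cells (SD over cells), and 1.64 ± 0.47% over all Agrp-low cells. Without the 2 cells with oligodendrocyte markers, the Pomc-lower mean was 1.57 ± 0.46% (n = 79).

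**Figure D2:**
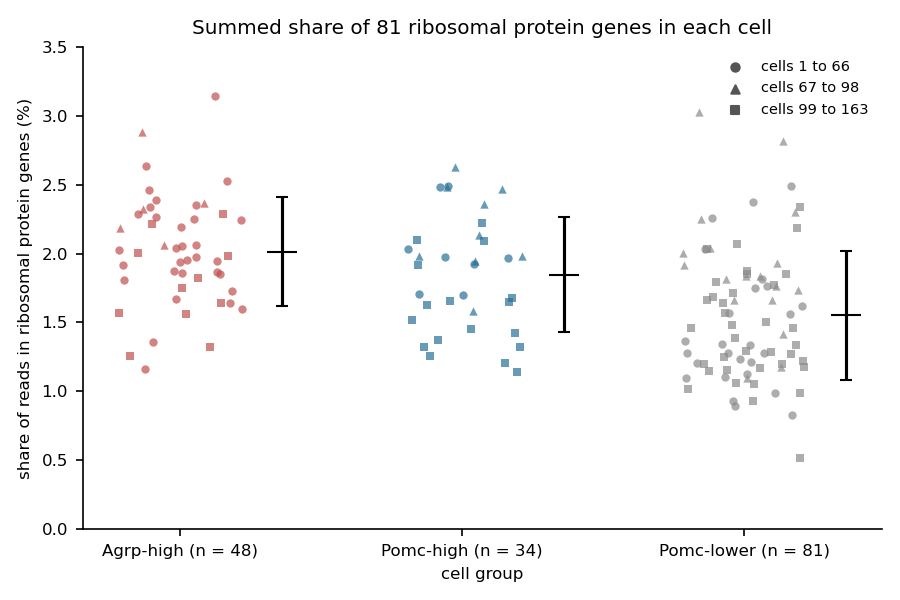
Share of reads in the 81 ribosomal protein genes in each cell, in percent (vertical axis), for Agrp-high, Pomc-high and Pomc-lower cells, with the mean and SD of each group beside its points and the run of cell numbers as the marker shape. Means of 2.01%, 1.85% and 1.55% lie within 1 SD or little more of each other, and only Pomc-lower holds cells under 1.1%.

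Both subunits moved together. Large subunit genes took 1.15 ± 0.21% of reads in Agrp-high, 1.04 ± 0.22% in Pomc-high and 0.881 ± 0.258% in Pomc-lower cells, and small subunit genes 0.793 ± 0.174%, 0.736 ± 0.180% and 0.610 ± 0.201% in the same order. The log2 ratio of large to small subunit sums was 0.55 ± 0.09 in Agrp-high, 0.51 ± 0.10 in Pomc-high and 0.55 ± 0.14 in Pomc-lower cells, so that the groups differed in it by less than 1 SD. Over all cells the log2 sums of the large and the small subunit had r = 0.967 (Spearman's rho 0.964).

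Cell number moved with these shares. The labels number the cells, and 3 runs of numbers, whose limits were set with values of these data known, differed in level. For Agrp-high against Agrp-low cells the mean shares were 2.04% against 1.59% in cells 1 to 66, 2.36% against 1.995% in cells 67 to 98, where only 5 cells were Agrp-high, and 1.76% against 1.49% in cells 99 and on. For Pomc-high against Pomc-lower cells they were 2.03% against 1.45%, 2.17% against 1.91%, and 1.59% against 1.45%. The order of the groups was the same in each run. What the runs stand for is not named, and its part in the levels was not tested.

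Gene by gene, the 2 comparisons share the Agrp-low cells, so they are given side by side and were not correlated. Between Agrp-high and Agrp-low cells, 81 of 81 members had a higher mean in Agrp-high cells, against 65% of all 12187 genes, with a median difference of 0.29 log2 over members, 0.19 over all genes and 0.19 over the 2632 other genes found in at least 90% of cells. At a difference of 0.5 log2 or more, 5 members were higher (background 27%) and 0 were lower (background 9.94%), and at 1 log2 or more 0 were higher (8.65%) or lower (2.94%). With the peptide genes left out of each cell's total, 13 members were at least 0.5 log2 higher (background 30.3%). In cells 1 to 66 alone 25 were (background 24.5%), 14 in cells 67 to 98 (34.1%) and 5 in cells 99 and on (34.8%). Within the runs the members' median was 0.42, 0.27 and 0.22 log2, and that of the other common genes 0.20, 0.18 and 0.27 log2, so that in cells 99 and on members stood no higher than other common genes did. Between Pomc-high and Pomc-lower cells, 80 of 81 members had a higher mean in Pomc-high cells (background 47.9%), with a median of 0.35 log2 against -0.03 over all genes. At 0.5 log2 or more, 12 members were higher (background 16.1%) and 0 lower (19.3%), and at 1 log2 or more 0 were higher (4.5%) or lower (5.1%). The 12 became 7 without the 2 cells with oligodendrocyte markers (background 16.1%), and 4 when cells were scaled to common other genes (14.2%). In cells 1 to 66 alone 50 were at least 0.5 log2 higher (background 33%), 15 in cells 67 to 98 (26.9%) and 6 in cells 99 and on (22.7%). Within the runs the members' median was 0.56, 0.29 and 0.24 log2, and that of the other common genes 0.19, 0.11 and -0.20 log2.

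**Figure D3:**
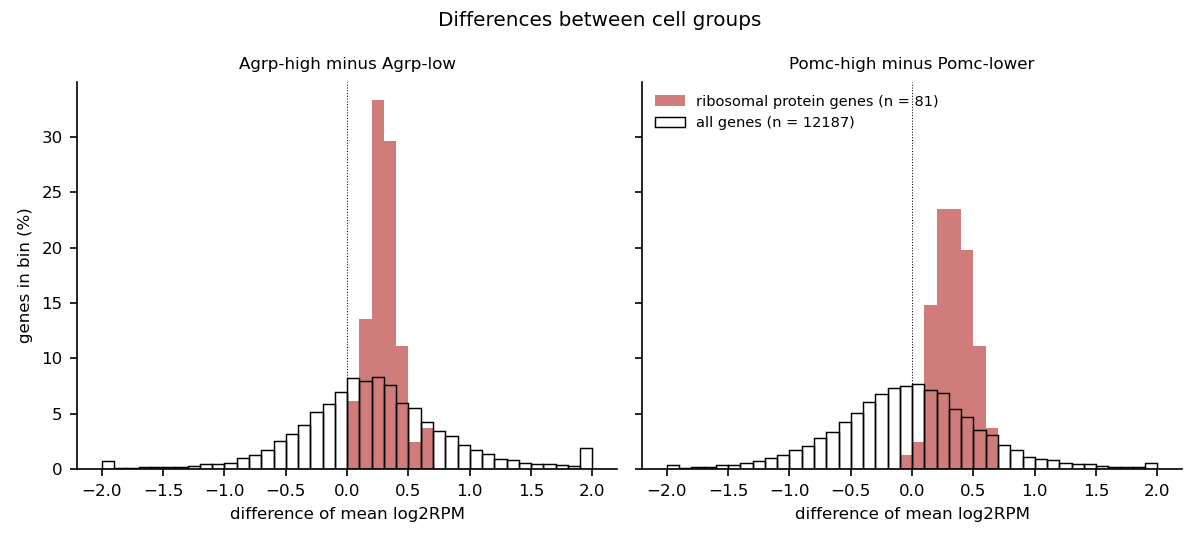
Percent of genes in each bin of 0.1 log2 of the difference of mean log2RPM, for the 81 members (filled) and all 12187 genes (outline), with Agrp-high minus Agrp-low on the left and Pomc-high minus Pomc-lower on the right. The end bins hold all values beyond 2 log2. Members form a narrow peak with medians of 0.29 and 0.35 log2, and all genes a broad one with medians of 0.19 and -0.03 log2.

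Of the members that differed most between Agrp-high and Agrp-low cells, *Rps27* and its identical copy *Rps27rt* came first. *Rps27* was lowest at 5.55, had a median of 7.26 and was highest at 8.24 log2RPM in Agrp-high cells, against 3.01, 6.62 and 8.47 log2RPM in Agrp-low cells. Its means differed by 0.69 log2, less than its SD of 0.88 over Agrp-low cells. *Rps27rt* had a mean of 7.57 ± 0.50 log2RPM in Agrp-high cells and 6.88 ± 0.81 in Agrp-low cells, a difference of 0.69 log2, which given the shared sequence is not a second observation. The other members past 0.5 log2 were *Rpl3*, at 9.49 ± 0.41 in Agrp-high and 8.89 ± 0.90 log2RPM in Agrp-low cells (difference 0.60 log2), *Rpl9*, at 8.49 ± 0.43 and 7.93 ± 0.66 log2RPM in the same order (0.56 log2), and *Rps12*, at 6.08 ± 0.58 and 5.57 ± 0.89 log2RPM (0.51 log2). For *Rpl3*, the Agrp-high cells ran between 7.96 and 10.18 log2RPM and the Agrp-low cells between 4.90 and 10.22 log2RPM, so the groups had nearly the same upper limit and differed below it. The smallest differences were those of *Rpl29* (0.01 log2) and *Rpl27* (0.01 log2) of the large subunit, *Rps27l* (0.07) and *Rpl36al* (0.08). *Rps27l*, unlike *Rps27*, was therefore nearly level, with medians of 6.62 log2RPM in Agrp-high and 6.44 log2RPM in Agrp-low cells.

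Between Pomc-high and Pomc-lower cells, *Rpl22* differed most, by 0.67 log2. Its lowest, median and highest values were 1.05, 5.32 and 7.06 log2RPM in Pomc-high cells, against -0.63, 4.92 and 7.83 log2RPM in Pomc-lower cells. It was found at 5 RPM in 33 of 34 Pomc-high and 75 of 81 Pomc-lower cells. The medians of the groups were closer to each other than the lowest cells were. *Rps28* followed (0.64 log2), at 5.41, 7.45 and 8.32 log2RPM in Pomc-high cells against 5.11, 6.71 and 9.30 log2RPM in Pomc-lower cells. Here the medians themselves stood apart, while the highest cell of all was Pomc-lower. *Rps27* came next with 6.96 ± 0.65 log2RPM in Pomc-high and 6.34 ± 0.90 in Pomc-lower cells (0.62 log2). *Rps20* had 7.69 ± 0.55 and 7.11 ± 0.98 log2RPM in the same order (0.58 log2), and *Rps21* 7.59 ± 0.60 and 7.02 ± 0.84 log2RPM (0.57 log2). These 4 are small subunit genes. Of the 12 members past 0.5 log2, 8 belonged to the 30 small subunit genes (26.7%) and 3 to the 45 large subunit genes (6.67%), against 16.1% of all genes. The last, *Rps27rt*, is outside the core. The median differences of the subunits were nevertheless close, at 0.36 log2 for the small and 0.34 log2 for the large. The least different were *Rps19bp1* (-0.04 log2), *Rpl7l1* (0.01 log2), *Rpl12* (0.09 log2), *Rps4x*, which is X-linked, (0.10 log2) and *Rpl5* (0.12 log2). *Rpl12* and *Rps4x* each had single Pomc-high cells far below the rest, at 0.24 and 1.90 log2RPM, next to medians of 6.82 and 7.89 log2RPM.

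The stalk of the large subunit, where elongation factors dock, is made of Rplp0, which holds pairs of Rplp1 and Rplp2, on a base with Rpl12. *Rplp0* had a mean of 8.19 ± 0.61 log2RPM in Agrp-high, 7.95 ± 0.87 in Pomc-high and 7.64 ± 1.04 in Pomc-lower cells, and *Rplp1* 7.81 ± 0.48, 7.79 ± 0.46 and 7.59 ± 0.67 log2RPM in the same order. *Rplp2* had 7.71 ± 0.49, 7.74 ± 0.56 and 7.37 ± 0.72 log2RPM. All 4 stalk genes were higher in both comparisons by 0.09 to 0.45 log2, and none reached 0.5 log2. Although their proteins sit in 1 structure, their mRNAs did not vary as a unit: *Rplp1* and *Rplp2* had r = 0.63 over all cells, but *Rplp0* had r = 0.21 with *Rplp2* and r = -0.09 with *Rplp1*. *Rplp0* instead went with *Rpl4* (r = 0.65) and *Rpl3* (r = 0.59), and these are the 3 members with the longest coding sequences, a set picked after these values were seen.

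Across cells the members varied together. The mean Pearson r over the 3240 pairs of members was 0.408, with 97.7% of pairs above 0, compared with 0.068 over pairs of the 2632 other common genes and 0.078 over pairs of the 1499 other genes in the same level band. It was 0.438 within the 48 Agrp-high cells, 0.297 within the 34 Pomc-high cells and 0.384 within the 81 Pomc-lower cells, and 0.444, 0.366 and 0.367 within the 3 runs of cell numbers. Pairs within the small subunit averaged 0.476, pairs within the large subunit 0.407 and pairs across subunits 0.443. For comparison, 76 mitochondrial ribosomal protein genes averaged 0.114, and 83 nuclear genes of the respiratory chain 0.248. All cells share depth and normalization between their genes, and the mean level of the members had r = 0.19 with log2 depth and r = -0.10 with the number of genes at 5 RPM.

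**Figure D4:**
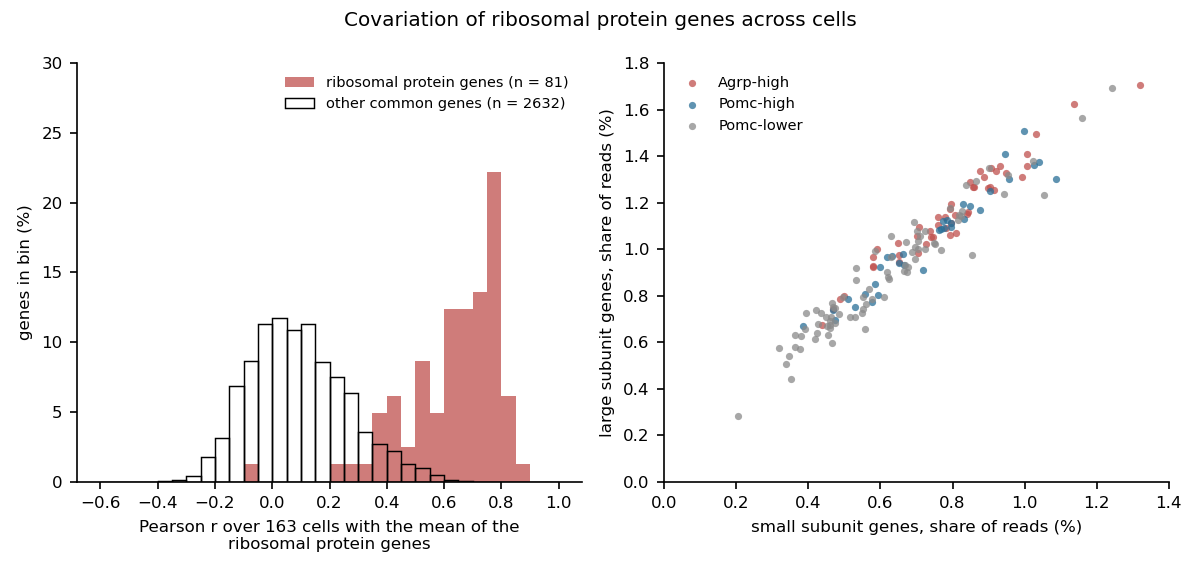
On the left, percent of genes in each bin of 0.05 of Pearson r with the mean of the members over all cells (each member left out of its own mean), for members (filled) and 2632 other common genes (outline). On the right, share of reads in large against small subunit genes in each cell, in percent, by group. Most members lie above r = 0.5 and most other genes below it, and the 3 groups lie on 1 line (r = 0.967 on the log2 scale).

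With a member left out of its own mean, the median r of the members with the rest was 0.67, and 66 of 81 exceeded 0.5, compared with 44 of 2632 other common genes. *Rpl37* and *Rpl37a*, small zinc-binding proteins of the large subunit, stood first with r = 0.89 and 0.85, followed by *Rpl32* and *Rps19* (both 0.83), the last of which is the gene most often mutated in Diamond-Blackfan anaemia in humans. At the other end were *Rpl7l1* (-0.09), *Rps19bp1* (0.21), *Rpl22* (0.29) and *Rpl15* (0.32). The 2 members whose products are not ribosomal subunits thus followed the rest least, but they and *Rpl22* also had the lowest means of all members. Over the 81 members, r with the rest had r = 0.48 with mean log2RPM. The part of level in these low r was not tested. *Rpl37* ran between 6.29 and 8.52 log2RPM in Agrp-high, between 5.59 and 9.03 in Pomc-high and between 5.30 and 8.88 in Pomc-lower cells, with medians of 7.53, 7.62 and 7.15 log2RPM. Among single pairs, *Rps27* and *Rps27rt* had the highest r (0.978), but their reads can hardly be separated. After them came *Rpl37* with *Rpl37a* (0.830) and *Rps29* with *Rpl37* (0.828), *Rpl36* (0.816) and *Rpl37a* (0.815), and the lowest was *Rpl7l1* with *Rps28* (-0.24).

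**Figure D5:**
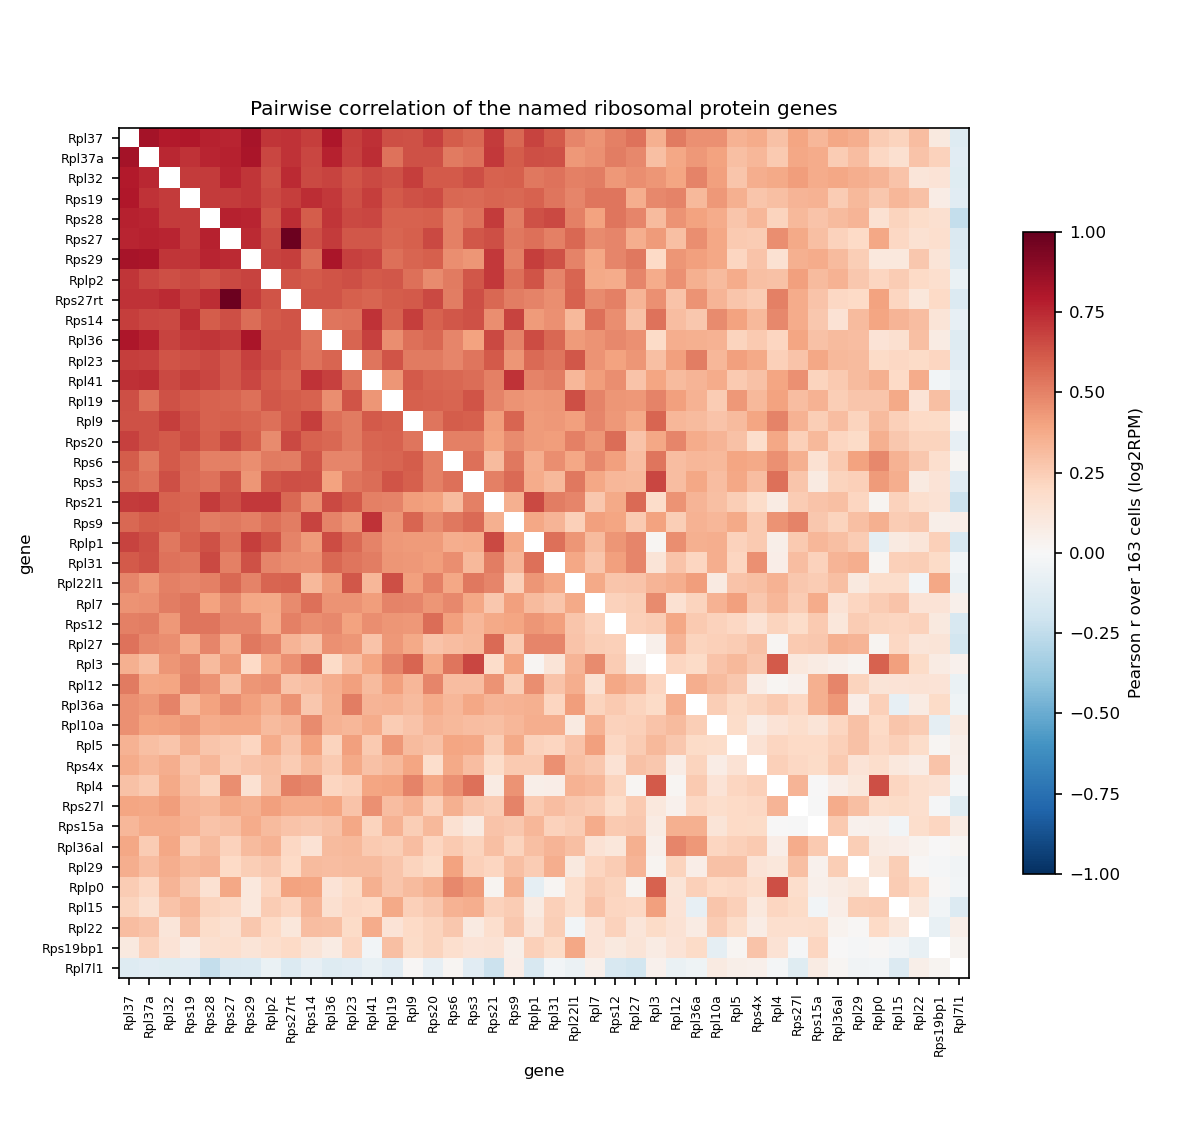
Pearson r of log2RPM over all cells for each pair of the 42 members named in the text (colour, from -1 to 1), ordered by r with the mean of the other members, *Rpl37* first. Most pairs are above 0, the darkest pair off the diagonal is *Rps27* with *Rps27rt* (0.978), and *Rpl7l1* forms the pale blue last row.

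Coding and transcript length moved with this covariation. Over the 81 members, r with the rest had r = -0.32 with log2 transcript length (Spearman's rho -0.24). The 25 core members with coding sequences of at most 399 bases had a mean pairwise r of 0.515, the 25 with at least 576 bases 0.405, and pairs between them 0.386. Outside the members, the r of a common gene with the members' mean was lower the longer its transcript (r = -0.588 against log2 length over 2626 genes, which are not independent of each other), and the mean of the common genes with transcripts of at most 1000 bases had r = 0.71 with the members' mean over all cells, against 0.16 for those with longer transcripts. When each cell was rescaled to those short genes, an alternative added after the data were seen, the mean pairwise r was 0.259, and the members' median difference was 0.23 log2 between Agrp-high and Agrp-low and 0.18 log2 between Pomc-high and Pomc-lower cells. Under that scaling the median of all genes was 0.13 log2 in the first comparison and -0.15 log2 in the second. The part of transcript length in the differences was not tested.

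The genes most like the members, by r with the members' mean among genes found in at least 90% of cells, included *Pfdn5* (0.70), a subunit of the prefoldin chaperone, *Fau* (0.66), *Atp5l* (0.65), a subunit of ATP synthase, *Nenf* (0.64), *Atpif1* (0.63), the inhibitor of ATP synthase, *Ubl5* (0.61) and *Rnasek* (0.59). *Fau* is a ribosomal protein gene that the symbol rule misses, since it encodes a small subunit protein fused to a relative of ubiquitin. Of other subunit genes outside the rule, *Gnb2l1*, which encodes the scaffold Rack1, had r = 0.31 and *Rpsa* r = 0.28. *Fau* had 7.26 log2RPM in Pomc-high and 6.73 in Pomc-lower cells, a difference of 0.53 log2, *Gnb2l1* differed by 0.53 log2 and *Rpsa* by 0.03 log2. The lowest r were those of *Gm21798* (-0.39), *Aplp2* (-0.34), a relative of the amyloid precursor, and *Arhgap5* (-0.33).

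Other genes of translation varied more from cell to cell than the members, whose median SD was 0.67 log2. The median SD was 0.87 log2 for elongation and TOP genes, 1.56 log2 for initiation factors and 2.22 log2 for ribosome biogenesis genes. Median levels were 8.26, 6.76 and 4.38 log2RPM in the same order, against 7.20 log2RPM for the members. The part of level in these spreads was not tested. Of 15 genes measured from a list of elongation factors and further TOP mRNAs, 3 were at least 0.5 log2 higher in Agrp-high cells, *Eef1d* (0.70), *Eef2* (0.50) and *Eef2k* (0.81), the kinase that inhibits *Eef2* and was found in only 15.95% of cells. In Pomc-high cells 1 was, the poly(A)-binding protein *Pabpc1* (0.77), and 0 were lower in either comparison. *Eef1a1*, which delivers tRNAs, was at 11.02 log2RPM in Agrp-high and 10.76 in Agrp-low cells, and its r with the members was 0.49, while *Eef2* had 0.16 and *Pabpc1* -0.16. Of 39 initiation factor genes, 6 were at least 0.5 log2 higher and 0 lower in Agrp-high cells, *Eif2a* (1.04) and *Eif2s3x* (1.03) the most, and 3 were higher, with 2 lower, in Pomc-high cells. Of 52 ribosome biogenesis genes, 13 were higher and 2 lower in Agrp-high cells, and 6 were higher and 5 lower in Pomc-high cells. *Polr1a*, the largest subunit of RNA polymerase I, was 1.06 log2 higher in Agrp-high cells, whereas the nucleolar proteins *Nop56* and *Ddx21* were lower by 0.63 and 1.17 log2. *Polr1a* and *Ddx21* were each found at 5 RPM in only 39.9% of cells, and the part of detection in their differences was not tested. As backgrounds, 27% and 9.94% of all genes were higher and lower in Agrp-high cells, and 16.1% and 19.3% in Pomc-high cells.

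A list of 24 genes covered mTOR signalling and regulators of ribosomal protein genes. Of these, 11 were at least 0.5 log2 higher in Agrp-high cells (background 27%) and 1 was lower (background 9.94%). The list had a median level of only 3.16 log2RPM and a median SD over cells of 2.48 log2. *Deptor*, an inhibitor of mTOR found at 5 RPM in 65.6% of cells, differed by 2.10 log2. Its means were 5.87 log2RPM in Agrp-high and 3.77 in Agrp-low cells. *Rictor*, a subunit of mTOR complex 2, differed by 1.41 log2. *Myc*, an activator of ribosomal protein genes, differed by 1.83 log2 but was found in only 25.8% of cells. In Pomc-high cells 3 of the 24 were higher (background 16.1%), among them *Akt1s1*, found in 66.9% of cells, by 1.03 log2. In the same cells 2 were lower (background 19.3%), *Myc* by 0.92 log2 and the S6 kinase *Rps6kb1* by 0.84 log2. Over all cells the mean of this list had r = -0.03 with the members' mean, that of the biogenesis genes -0.03, of the initiation factors 0.22, of the elongation and TOP genes 0.50 and of the nuclear respiratory chain genes 0.51. The 76 mitochondrial ribosomal protein genes, which serve a separate ribosome, had 0.35. Of them 16 were higher (background 27%) and 0 lower (9.94%) in Agrp-high cells. In Pomc-high cells 3 were higher (16.1%) and 9 lower (19.3%).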

How the data were processed

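Single Pomc-EGFP neurons were sequenced as SMART-Seq v4 and Nextera XT libraries with single-end 50 bp reads. Alignment by the authors was to GRCm38 (Ensembl release 74) with TopHat2 2.0.11, reads per gene came from Cufflinks 2.2.1, and normalization used edgeR and limma. The deposited table gives log2 values (log2RPM) for 12187 genes, which entered every step unchanged. The study's methods name a batch correction, but the batches are not given in the sources used here. All cells share a floor of -0.91 log2RPM (0.532 RPM), which stands for 0 reads. With it taken off, low values were whole multiples of 1 read (99.3% of 507014 values of up to 20 reads, tolerance 0.1), which gave each cell's depth and the shares of reads. Depth and shares count only reads on the 12187 genes of the table. Shares do not depend on the library sizes the authors used, whereas levels in log2RPM do.

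All cells count as 1 sample, so no test was run and no count model was fitted. Levels are means of log2RPM over cells, a difference is between such means, and differences of 0.5 and 1 log2 were counted for every gene. No doublet caller was run. Members, lists, groups and runs of cell numbers were chosen with earlier results of these data known. Named members are those with the 5 highest and lowest means, SDs and differences, the 4 highest and lowest r, the stalk and the genes outside the core, and named others are the 8 highest and 4 lowest r, subunits outside the rule and examples of the lists. A few genes that met these rules are not reported here. Lengths and shared 50-base words came from GENCODE M21, and promoters from RefSeq. The alternatives were pseudocounts of 0.1 and 5 RPM, a filter on low values, other scalings, thinning to 4 M reads and other splits. Further ones left out the 2 cells with oligodendrocyte markers, left out cells under 5500 genes, or used medians or core subunits alone. The computations were tested on simulated data. Python 3.11.15, numpy 2.4.6, pandas 2.3.3, scipy 1.17.1 and matplotlib 3.10.9 were used.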

Additional observations from a re-analysis of the deposited data

How the results depend on the processing

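The median member difference stayed above 0 under all alternatives run, between 0.22 and 0.42 log2 for Agrp-high minus Agrp-low and between 0.18 and 0.56 log2 for Pomc-high minus Pomc-lower, and the share of reads ran between 1.76% and 2.36% in Agrp-high, 1.59% and 2.17% in Pomc-high and 1.45% and 1.91% in Pomc-lower cells. Of 301 alternative values for group results, 282 moved by less than the spread or by less than 1.5 times, and 19 moved. Sign was checked for the median member differences only, and 0 changed it. Their spread was the SD over cells of the members' mean, 0.445 log2. It exceeds the main differences, so staying within it says little about how stable they are. Some alternatives cannot alter a value, as another *Pomc* split cannot alter Agrp-high minus Agrp-low. All that moved were counts of members past a limit, and the cause was not tested. The count of members at least 0.5 log2 higher, 5 in Agrp-high cells, was 13 without the peptide genes in the total (30.3% of all genes), 13 with each cell scaled to the same total (29.9%), 3 when scaled to short genes (24%), 25 in cells 1 to 66 (24.5%) and 14 in cells 67 to 98 (34.1%). The same count, 12 in Pomc-high cells, was 4 when scaled to common other genes (14.2% of all genes), 6 with each cell scaled to the same total (15%), 1 when scaled to short genes (11.9%), 7 without the 2 cells with oligodendrocyte markers (16.1%), 7 with *Pomc* split at 10 log2RPM (14.4%), 50 in cells 1 to 66 (33%) and 6 in cells 99 and on (22.7%). Counts of 0 became 1 for members at least 0.5 lower in cells 67 to 98 (both comparisons) and 99 and on (Pomc-high), 1 for members at least 1 higher in cells 99 and on (Agrp-high) and 67 to 98 (Pomc-high), 2 in cells 1 to 66 (Pomc-high), and 1 at least 1 lower in cells 99 and on (Pomc-high). The mean pairwise r ran between 0.259 and 0.459 and the median SD between 0.57 and 0.70 log2. *Rpl7l1* was found in 98.2% of cells at 1 RPM and 80.98% at 10 RPM. With 20 cells under 4 M reads, 5 RPM rests on few reads there, and detection is least certain in those cells.

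No paired analysis was possible because the labels put all cells in 1 group and number them without pairing.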

Other observations

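Single cells at the ends of the range were not all of the same group. The highest share of reads in ribosomal protein genes was in an Agrp-high cell (cell 6, 3.15%), and the next was in a Pomc-lower cell (cell 84, 3.03%), which had 5000 genes at 5 RPM and *Pomc* at 7.65 log2RPM. A further Pomc-lower cell had 2.82% (cell 89). The lowest share, 0.517%, was in one of the 2 cells with oligodendrocyte markers, and the next lowest, cell 8 at 0.825% and cell 57 at 0.892%, had 7834 and 8183 genes at 5 RPM, above the median of 7087 over all cells.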
